A study of Mus musculus with 4 samples.

Results

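Expression of the V segments of the immunoglobulin kappa light chain was followed with the 145 array probes whose names begin with IGKV, out of 45992 probes on the array. The name alone chose them, and each stands for a different V segment. The first number in the name is the segment family, and the array covered 19 families. A probe was tested if its deposited detection p was under 0.05 on at least 2 of the 4 arrays, which 102 of the 145 probes met. Of these, 94 were detected on all 4 arrays, and 8 on 2 or 3.

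A kappa light chain is made from a V segment that a developing B cell has joined to a J segment, and the joined pair is transcribed and spliced to the constant region Igkc. Each kappa-expressing B cell therefore transcribes mainly the V segment it has rearranged, and a population of cells shows its repertoire as the mixture. As B cells turn into plasmablasts and plasma cells, immunoglobulin mRNA becomes one of the most abundant kinds of message in the cell. Blimp-1, the product of Prdm1, is a main driver of that step.

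Tested here were GFP-positive cells and GFP-negative cells, with 2 arrays each. The sample titles call both B cell blasts, and the labels also call the GFP-positive cells pre-plasmablasts. Both groups were cultured mouse B cells on a C57BL/6 background, and both carried the genotype prdm1-/-, so the deletion of Prdm1 is common to GFP-positive and GFP-negative cells. Stimulation was with CD40 ligand and with 10 U/mL each of IL-4 and IL-5, and the sort by GFP fluorescence was made on day 4. The locus that carries GFP is not in the labels, and neither is whether the 2 arrays of a group come from separate cultures or mice. A p-value here covers the spread between arrays alone, and that spread may be technical. The probe for eGFP followed the sort, with 12.75 and 12.72 in GFP-positive cells, against 9.28 and 9.39 in GFP-negative cells.

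Values are deposited normalized intensities on a log2-like scale, on which all arrays share a median of 8.09 and the brightest probe reads 16.07. Probes detected on no array fall mostly between 7.88 and 8.16. None of the 8 B-cell markers listed for a check of the cell type had a matched probe, so the label was not checked on them. Of markers of other cells, Cd3e of T cells and the collagen genes Col1a1, Col1a2 and Col3a1 of fibroblasts were detected on 0 arrays. The 2 tested myeloid genes were not called, with log2 changes of +0.33 for the lysosomal Cd68 (adjusted p = 0.128) and +0.32 for the integrin Itgam (adjusted p = 0.0562). The red-cell gene Hbb-b1 was detected on all 4 arrays and was not called, with 8.89 and 8.76 in GFP-positive cells, against 9.48 and 8.81 in GFP-negative cells, a change of -0.32 (SE 0.22, adjusted p = 0.439). Among untested genes of these lists, Csf1r of myeloid cells was detected on 0 arrays and Hba-a1 of red cells on 1. Of 2 probes for the myeloid gene Lyz2, 0 passed the detection filter. The part of these markers in the results was not tested.

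The kappa V segment probes were higher in GFP-positive cells as a class. Of 102 tested probes, 89 rose, 0 fell and 13 were not called (limma, adjusted p under 0.05), where 5.83% of all 15215 tested features were called higher and 5.29% lower. The median change was +1.31 log2 units and the range +0.05 to +2.34, while the median over all tested features was -0.02. All 102 estimates had a positive sign, 72 were at least 1 log2 unit and 4 at least 2. In 99 of the 102 the lower GFP-positive array lay above the higher GFP-negative array, against 24.9% of all tested features. Over the 102 probes, the median level was 12.27 and 12.28 on the GFP-positive arrays, against 11.18 and 10.98 on the GFP-negative arrays.

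These counts do not number independent segments. V segments of a family resemble each other closely, and a probe for one can bind transcripts of another, which was not tested. A probe that is detected through the GFP-positive arrays alone had to differ. Of the 94 probes detected on all 4 arrays, 87 rose in the same fit, with a median of +1.35. When only features detected on all 4 arrays were fitted, 89 of these 94 probes were called higher, against 6.77% of all those features. Of the 8 detected on fewer arrays, 2 rose, IGKV4-81 (log2 change +0.92, adjusted p = 0.00895) and IGKV8-34 (log2 change +0.60, adjusted p = 0.0157). In sorted bulk RNA, more cells that use a segment and more of its RNA per cell cannot be told apart. The values are also relative to the rest of the transcripts on each array.

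At the detection threshold, 2 probes were detected on 2 arrays and 2 on 1 array. Of those inside it, IGKV14-126-1 had 8.28 and 8.22 in GFP-positive cells, against 8.06 and 8.12 in GFP-negative cells, and IGKV14-134-1 had 8.42 and 8.22 in GFP-positive cells, against 8.10 and 8.09 in GFP-negative cells. Of those outside it, IGKV14-118-2 had 8.33 and 8.15 in GFP-positive cells, against 8.08 and 8.15 in GFP-negative cells, and IGKV3-3 had 8.17 and 8.11 in GFP-positive cells, against 8.21 and 8.12 in GFP-negative cells. All 4 probes lie between 8.06 and 8.42 on every array, at the floor of the scale. The 43 probes that were not tested read between 7.86 and 8.33 on every array. Their median difference between the groups was +0.01, and 24 of the 43 were positive.

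The 5 largest changes came from 5 families. IGKV4-50 had 11.98 and 12.14 in GFP-positive cells, against 9.85 and 9.59 in GFP-negative cells, a change of +2.34 (SE 0.12, adjusted p = 0.00113). IGKV8-16 had 13.68 and 13.51 in GFP-positive cells, against 11.47 and 11.27 in GFP-negative cells, a change of +2.22 (SE 0.11, adjusted p = 0.00113). Replicates lay close together in both segments, and the groups were far apart. IGKV16-104, the single probe of its family, had 12.48 and 12.05 in GFP-positive cells, against 10.38 and 10.04 in GFP-negative cells, a change of +2.05 (SE 0.18, adjusted p = 0.00367). IGKV2-112 had 11.54 and 11.04 in GFP-positive cells, against 9.25 and 9.23 in GFP-negative cells, a change of +2.05 (SE 0.17, adjusted p = 0.00301). In both, the GFP-positive arrays lay further apart than for the first 2 probes, and the groups stayed well separated. IGKV1-122 had 10.94 and 10.69 in GFP-positive cells, against 8.87 and 8.79 in GFP-negative cells, a change of +1.98 (SE 0.11, adjusted p = 0.00129).

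The 5 brightest probes on average were IGKV1-110, IGKV1-117, IGKV6-15, IGKV4-61 and IGKV4-57. IGKV1-110 had 16.06 and 16.03 in GFP-positive cells, against 15.12 and 15.20 in GFP-negative cells, and IGKV1-117 had 16.04 and 16.07 in GFP-positive cells, against 14.78 and 14.93 in GFP-negative cells. The GFP-positive values of both sit at the top of the scale. IGKV1-110 changed by +0.88 (SE 0.08, adjusted p = 0.00371), whereas IGKV1-117 changed by +1.20 (SE 0.09, adjusted p = 0.00231). Whether the end of the scale limits these changes was not tested. IGKV4-61 had 15.53 and 15.43 in GFP-positive cells, against 14.19 and 14.16 in GFP-negative cells, a change of +1.30 (SE 0.08, adjusted p = 0.00181). IGKV4-57 had 15.42 and 15.38 in GFP-positive cells, against 14.12 and 14.07 in GFP-negative cells, a change of +1.31 (SE 0.08, adjusted p = 0.00156). The family 4 pair thus moved by nearly the same amount, with replicates close together in both groups. IGKV6-15 had 15.27 and 15.45 in GFP-positive cells, against 14.34 and 14.28 in GFP-negative cells, a change of +1.05 (SE 0.10, adjusted p = 0.00373).

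A second probe for the Igkv1-110 segment, one that carries an NCBI Gene ID in its name, was far dimmer. It had 11.16 and 10.46 in GFP-positive cells, against 8.94 and 8.83 in GFP-negative cells, a change of +1.93 (SE 0.23, adjusted p = 0.00805). Both probes of this segment were called higher.

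**Figure D1:**
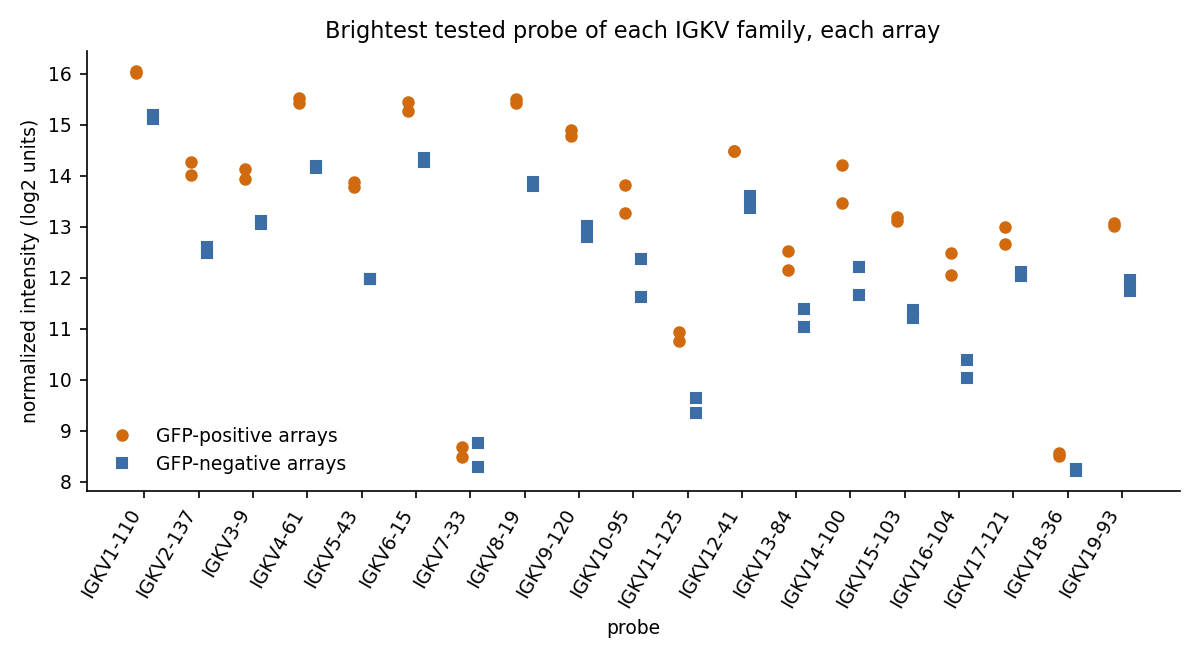
Normalized intensity (log2 units) of the brightest tested probe of each IGKV family on each array, with GFP-positive arrays as orange circles and GFP-negative arrays as blue squares. The circles lie above the squares in 18 of 19 families, and in IGKV7-33 the groups overlap between 8.29 and 8.76. Probes bind with different strength, so heights are compared within a probe only.

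By family, 17 of the 19 had at least 1 called probe, and in 10 families every tested probe was called. Among those 10, IGKV15, IGKV16 and IGKV19 had 1 tested probe each, and IGKV13 had 2. Among the 10 families with at least 4 tested probes, family medians ran from +0.99 to +1.87. The pooled SD of single-probe changes within these families was 0.43, and the SD between their medians was 0.32. A median of several probes varies less than a single probe, so these SDs are not directly comparable. Family differences were not tested, since probes of a family share sequence and are not replicates of it.

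The highest of these medians was that of family IGKV9, where 5 of 5 tested probes rose by 1.45 to 1.94 (median +1.87). IGKV9-120, its brightest probe, had 14.89 and 14.79 in GFP-positive cells, against 13.02 and 12.79 in GFP-negative cells, a change of +1.94 (SE 0.11, adjusted p = 0.00125). In IGKV2, 4 of 4 tested probes rose with a median of +1.71, although 7 of its 11 probes were not tested. IGKV2-137, which carries the highest position number on the array, had 14.01 and 14.26 in GFP-positive cells, against 12.49 and 12.60 in GFP-negative cells, a change of +1.59 (SE 0.11, adjusted p = 0.00192). In IGKV5, 5 of 5 rose (median +1.66), with IGKV5-43 at 13.78 and 13.89 in GFP-positive cells, against 11.98 and 11.97 in GFP-negative cells and a change of +1.86 (SE 0.08, adjusted p = 9.91e-04). In IGKV8, 11 of 11 rose (median +1.63), with IGKV8-19 at 15.43 and 15.51 in GFP-positive cells, against 13.88 and 13.80 in GFP-negative cells and a change of +1.63 (SE 0.08, adjusted p = 0.00113). These 4 families have medians above +1.6 and hold no tested probe without a call.

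The middle of the range was held by the largest family. In IGKV4, 26 of 28 tested probes rose, with a median of +1.37 and a range of +0.07 to +2.34, the widest of any family. In IGKV14, 3 of 5 rose (median +1.40). IGKV14-100 had 14.22 and 13.47 in GFP-positive cells, against 12.22 and 11.67 in GFP-negative cells, a change of +1.90 (SE 0.29, adjusted p = 0.0169), and its replicates lay far apart. In IGKV1, 7 of 7 rose, with a median of +1.29.

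The lower medians were those of IGKV12, IGKV6 and IGKV3. In IGKV12, 6 of 9 tested probes rose (median +1.04), and IGKV12-41 had 14.49 and 14.49 in GFP-positive cells, against 13.60 and 13.38 in GFP-negative cells, a change of +1.00 (SE 0.10, adjusted p = 0.00506). In IGKV6, 10 of 11 rose, with a median of +0.99 and a range of +0.45 to +1.34. In IGKV3, 4 of 4 rose (median +0.99), and IGKV3-9 had 13.93 and 14.13 in GFP-positive cells, against 13.06 and 13.12 in GFP-negative cells, a change of +0.94 (SE 0.10, adjusted p = 0.00566). Ordered by mean level over the 4 arrays, the tested probes were divided into dim, middle and bright sets of 34. Within the bright set, the median change was +1.90 for 2 probes of IGKV9, +1.83 for 5 of IGKV8, +1.76 for 2 of IGKV5 and +1.54 for 2 of IGKV2. It was +1.39 for 9 of IGKV4, +1.31 for 4 of IGKV1, +1.00 for 3 of IGKV12 and +0.99 for 5 of IGKV6. IGKV14 and IGKV3 had 1 probe each there, at +1.90 and +0.94.

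Of the 9 families with fewer than 4 tested probes, 7 had a call. IGKV15-103 had 13.11 and 13.18 in GFP-positive cells, against 11.37 and 11.22 in GFP-negative cells, a change of +1.85 (SE 0.09, adjusted p = 0.00113). IGKV10-95 had 13.81 and 13.28 in GFP-positive cells, against 12.38 and 11.62 in GFP-negative cells, a change of +1.55 (SE 0.29, adjusted p = 0.0313). IGKV11-125 had 10.75 and 10.93 in GFP-positive cells, against 9.65 and 9.35 in GFP-negative cells, a change of +1.34 (SE 0.13, adjusted p = 0.00444). The groups were clear of each other in all 3. IGKV19-93 had 13.07 and 13.01 in GFP-positive cells, against 11.95 and 11.74 in GFP-negative cells, a change of +1.20 (SE 0.10, adjusted p = 0.00320). IGKV13-84 had 12.15 and 12.52 in GFP-positive cells, against 11.38 and 11.03 in GFP-negative cells, a change of +1.12 (SE 0.17, adjusted p = 0.0170), no longer called once GFP-positive replicate 2 was left out (adjusted p = 0.0552). IGKV17-121 had 12.66 and 13.00 in GFP-positive cells, against 12.03 and 12.12 in GFP-negative cells, a change of +0.75 (SE 0.13, adjusted p = 0.0248). With 1 array left out, its change ranged from +0.58 to +0.93, and its call did not hold in every such fit. IGKV10-95 was not called once GFP-positive replicate 1 was left out (adjusted p = 0.110).

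**Figure D2:**
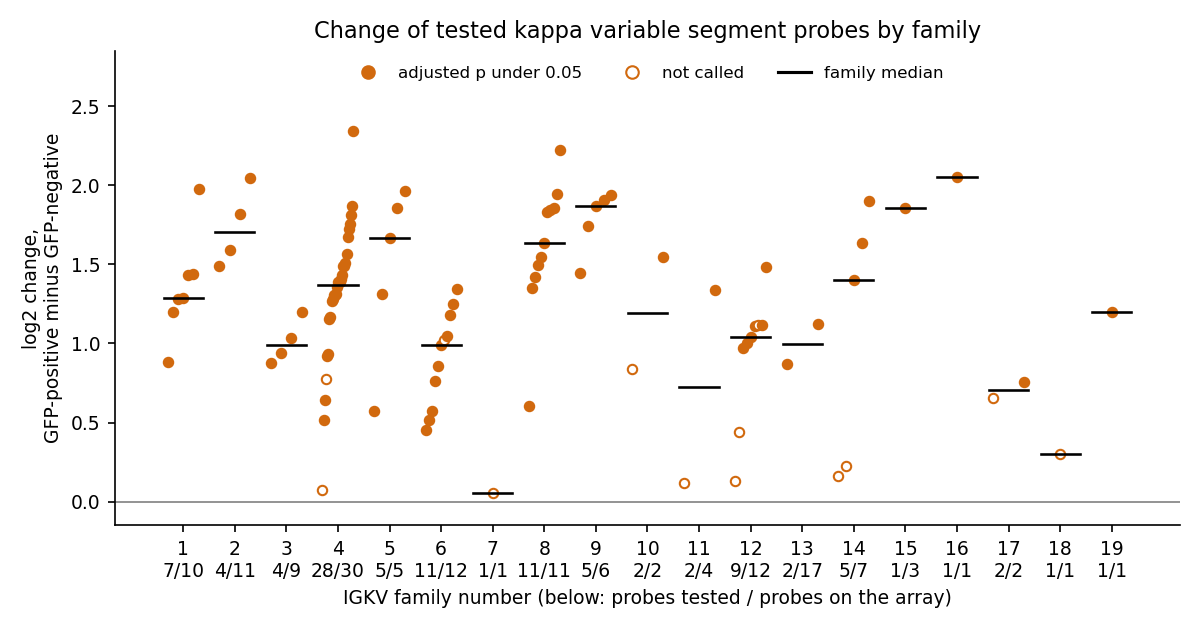
Log2 change (GFP-positive minus GFP-negative) of each of the 102 tested probes by IGKV family, with filled points for an adjusted p under 0.05, open points for probes not called and black bars for family medians. All points lie above 0, and family medians of the larger families run from +0.99 to +1.87.

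The 13 probes that were not called lie mostly at the dim end, with 12 of them in the dim set. The 5 lowest changes were those of IGKV7-33, IGKV4-75, IGKV11-106, IGKV12-40 and IGKV14-126-1. IGKV7-33, the single probe of its family, had 8.48 and 8.68 in GFP-positive cells, against 8.76 and 8.29 in GFP-negative cells, a change of +0.05 (SE 0.17, adjusted p = 0.895), and its groups overlap. IGKV4-75 had 8.19 and 8.27 in GFP-positive cells, against 8.19 and 8.13 in GFP-negative cells, and its change was +0.07 (SE 0.08, adjusted p = 0.659). IGKV11-106 had 8.34 and 8.22 in GFP-positive cells, against 8.13 and 8.20 in GFP-negative cells, with a change of +0.12 (SE 0.09, adjusted p = 0.471). IGKV12-40 had 8.25 and 8.39 in GFP-positive cells, against 8.16 and 8.22 in GFP-negative cells, with a change of +0.13 (SE 0.09, adjusted p = 0.427). IGKV14-126-1, given above, had a change of +0.16 (SE 0.08, adjusted p = 0.280). All 5 read under 8.8 on every array, close to the band of probes detected on no array. IGKV18-36, the single probe of its family, had 8.51 and 8.57 in GFP-positive cells, against 8.21 and 8.26 in GFP-negative cells, with a change of +0.30 (SE 0.08, adjusted p = 0.0724), and was not called although the groups did not overlap.

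The 1 uncalled probe outside the dim set, IGKV17-127, had 12.15 and 12.72 in GFP-positive cells, against 11.65 and 11.91 in GFP-negative cells, a change of +0.66 (SE 0.20, adjusted p = 0.111), and its GFP-positive replicates lay further apart than its GFP-negative ones. The widest disagreement between replicates of any tested probe was that of IGKV6-13, which had 8.17 and 10.95 in GFP-positive cells, against 8.26 and 8.81 in GFP-negative cells, a change of +1.02 (SE 0.87, adjusted p = 0.529). Both replicate 2 arrays were higher than their replicate 1 counterparts, and the groups overlap. Without GFP-positive replicate 1 the change was +2.42, and without GFP-positive replicate 2 it was -0.37. The remaining uncalled probes, IGKV4-60, IGKV10-96, IGKV12-38, IGKV12-66 and IGKV14-134-1, had changes of +0.77, +0.84, +0.44, +1.11 and +0.22, with adjusted p from 0.0525 to 0.223. Of these, IGKV4-60, IGKV10-96 and IGKV12-66 were called without GFP-positive replicate 2 (adjusted p = 0.00947 to 0.0144), and IGKV17-127 was called without GFP-positive replicate 1 (adjusted p = 0.0375).

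Calls and changes were set against the mean level. In the bright set (levels of 12.79 to 15.60), 34 of 34 rose, with a median of +1.40 and a range of +0.76 to +1.94. In the middle set (10.50 to 12.77), 33 of 34 rose, with a median of +1.49 and a range of +0.45 to +2.34. In the dim set (8.17 to 10.38), 22 of 34 rose, with a median of +0.98. Tested features outside the V segment probes of the kappa, lambda and heavy chains were called higher in 7.92%, 8.32% and 4.01% within the same 3 spans, from bright to dim. Their median changes were -0.21, -0.08 and -0.01. The kappa probes rose at levels at which other bright features had a negative median change. The arrays share nearly the same distribution of values, with sorted columns at most 0.00267 apart. A rise of many bright probes must then go with lower values of other features, so these medians are not an independent comparison.

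Across the 102 probes, change and mean level had a Pearson correlation of 0.41 and a Spearman correlation of 0.34. Among the 94 detected on all arrays, these were 0.24 and 0.18. The points share the same 4 arrays, and related probes share sequence, so the values describe these probes only. Levels in both groups ranked the probes nearly alike, with a Spearman correlation of 0.98 between the GFP-positive and GFP-negative means. Probes bind with different strength, and this is shared by both groups, so the value does not show whether the groups use segments alike.

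**Figure D3:**
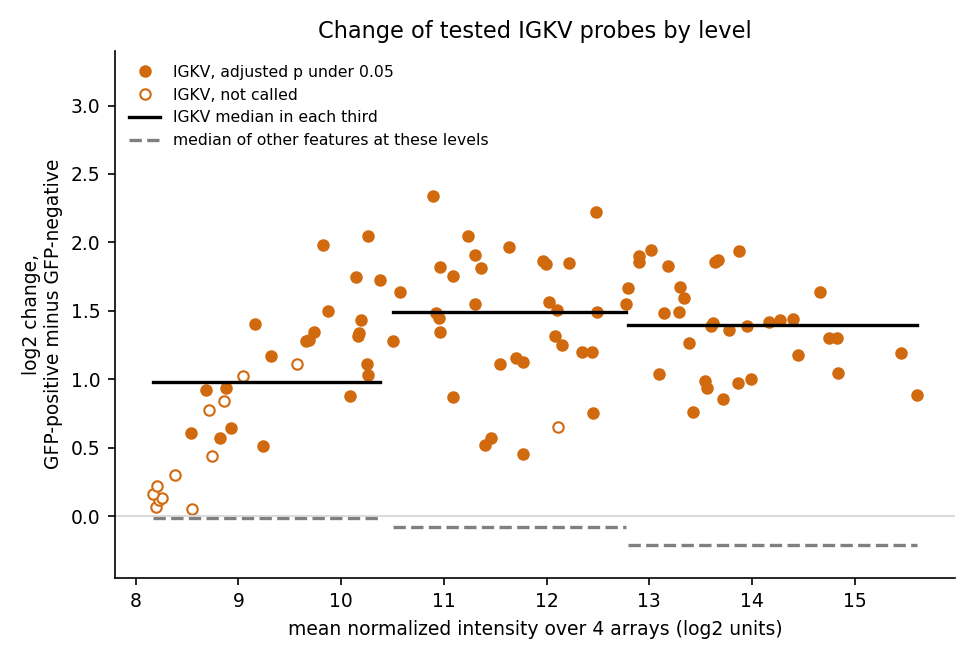
Log2 change (GFP-positive minus GFP-negative) of the 102 tested probes against their mean normalized intensity over 4 arrays (log2 units). Black bars give the median in each set of 34 by level (+0.98, +1.49 and +1.40 from dim to bright), and dashed grey bars the median of tested features outside the IGKV, IGHV and IGLV probes at the same levels (-0.01, -0.08 and -0.21).

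The RefSeq annotation of the mouse genome (GRCm38) lists 162 Igkv genes, all on chromosome 6, as V segments or as V segment pseudogenes. By symbol, 139 of the 145 probes matched it, 92 to V segments and 47 to pseudogenes. Of the V segment probes, 84 of 92 (91.3%) were detected on at least 2 arrays, against 15 of 47 pseudogene probes (31.9%) and 34.3% of all probes on the array. Among those tested, 77 of 84 V segment probes rose (median +1.31) and 9 of 15 pseudogene probes (median +1.11). The 10 pseudogene probes detected on all 4 arrays gave 9 that rose, with a median of +1.48. In family IGKV13, 15 of 17 probes are for pseudogenes and none of these was tested, whereas both V segment probes were tested and rose.

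Some pseudogene probes were bright and changed as much as those of segments not annotated as pseudogenes. The brightest was IGKV8-31, chosen after its values were seen, with 13.99 and 13.98 in GFP-positive cells, against 12.07 and 12.02 in GFP-negative cells, a change of +1.94 (SE 0.08, adjusted p = 8.01e-04). IGKV9-119, chosen likewise, had 12.24 and 12.26 in GFP-positive cells, against 10.38 and 10.32 in GFP-negative cells, a change of +1.90 (SE 0.08, adjusted p = 8.48e-04). In both, the groups were nearly 2 units apart and the replicates close together. Whether such probes read the pseudogene or a related segment was not tested. The 3 tested probes with no matching symbol, IGKV4-52, IGKV6-c and IGKV6-d, rose by 1.57, 0.52 and 0.57.

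The second number in a probe name is the segment's place along the locus, counted away from the J segments. Among the tested probes nearest to the J segments (numbers 1 to 44), 28 of 33 rose, with a median of +1.05. Among the central ones (45 to 88), 30 of 33 rose, with a median of +1.31. Among the far ones (89 to 137), 29 of 34 rose, with a median of +1.44. Across the 100 probes with a number, change and number had a Pearson correlation of 0.10 and a Spearman correlation of 0.15. Families are not spread evenly along the locus, so family and place were not separated.

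**Figure D4:**
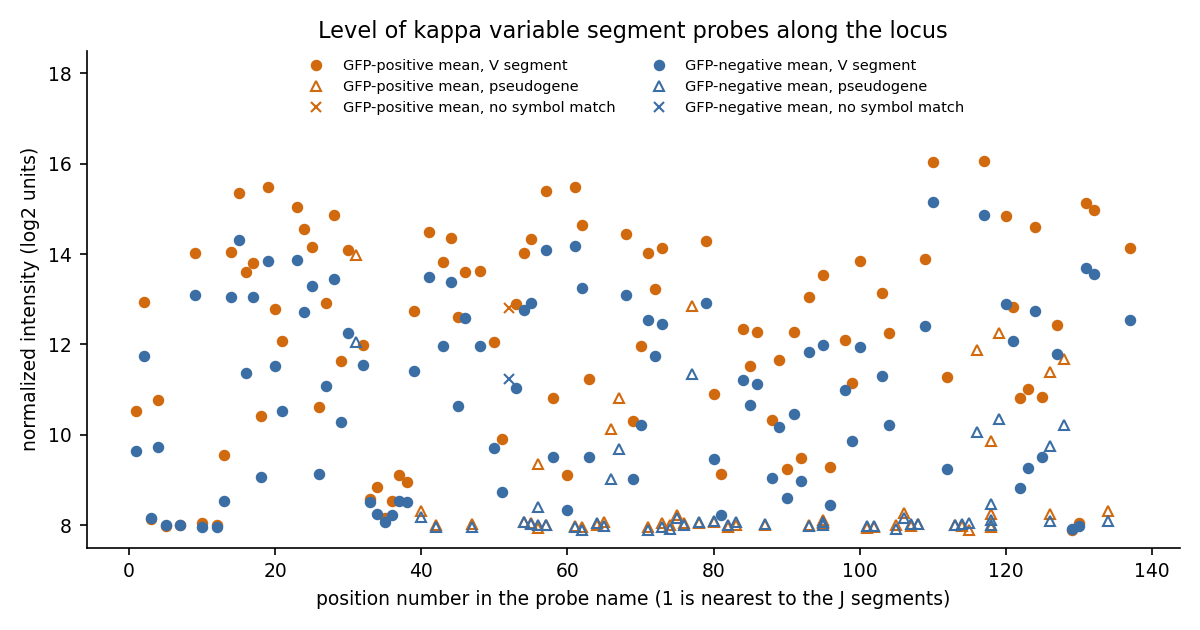
Mean normalized intensity (log2 units) of kappa V segment probes against the position number in their names, with GFP-positive means in orange and GFP-negative means in blue. Filled circles are RefSeq V segments, open triangles pseudogenes and crosses probes without a matching symbol. Rises occur in the near, central and far parts of the locus, though not at every number, and most of the triangles sit near 8.

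Replicates were compared within each group. Between the GFP-positive arrays, the median size of the difference over the 102 probes was 0.19, and between the GFP-negative arrays it was 0.17. The median change between the groups was +1.26 between the replicate 1 arrays and +1.40 between the replicate 2 arrays. Replicate 1 minus replicate 2 had a Pearson correlation between the groups of 0.54 across these probes. It was 0.44 across tested features outside the kappa, lambda and heavy-chain V segment probes. Within GFP-positive cells, replicate 1 was higher for 54 of the 102 probes, with a median difference of +0.01. Within GFP-negative cells, it was higher for 81, with a median difference of +0.14. Replicate 1 was higher in both groups for 49 probes, lower in both for 16, and of opposite sign for 37. The uneven split within GFP-negative cells enters these joint counts.

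These counts varied between families. In IGKV4, 17 of 28 probes were higher on replicate 1 in both groups, and 0 were lower in both. In IGKV12, 7 of 9 were higher on replicate 1 in both groups and 1 was lower in both. Both tested probes of IGKV10 were higher on replicate 1 in both groups, and both of IGKV17 were lower there. In IGKV2, 3 of 4 were lower in both groups.

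**Figure D5:**
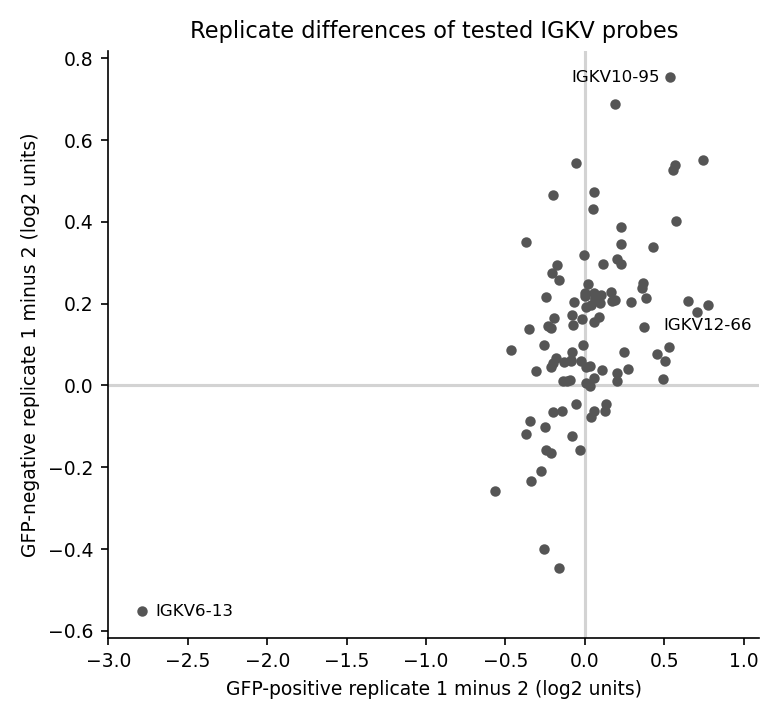
Replicate 1 minus replicate 2 (log2 units) in GFP-positive cells (horizontal) and GFP-negative cells (vertical) for each of the 102 tested probes. Most points lie near the centre, and IGKV6-13 stands apart at -2.79 and -0.55.

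Neither probe for the kappa constant region, to which rearranged kappa V segments are spliced, was called. The IGKC probe had 15.72 and 15.86 in GFP-positive cells, against 15.78 and 15.80 in GFP-negative cells, a change of -0.00143 (SE 0.09, adjusted p = 0.995), and a second probe, of gene Igkc, had 15.81 and 15.93 in GFP-positive cells, against 15.80 and 15.85 in GFP-negative cells, a change of +0.04 (SE 0.08, adjusted p = 0.806). Both read between 15.72 and 15.93 on every array, where the brightest probe of any array read 16.07, and whether the end of the scale limits them was not tested. The array holds no probe named for a kappa J segment. Of 8 probes named for lambda V segments, 3 were detected and rose, by 0.59, 1.53 and 1.24 for IGLV1, IGLV2 and IGLV3. A tested probe that carries the Gene ID of Iglv1 was not called, with 15.88 and 16.00 in GFP-positive cells, against 15.95 and 15.82 in GFP-negative cells, a change of +0.06 (SE 0.09, adjusted p = 0.763). A second such probe was left out of the fit, since each gene kept 1 probe. It had 15.33 and 15.09 in GFP-positive cells, against 13.72 and 13.74 in GFP-negative cells. With all probes kept, it rose by 1.48 (limma, adjusted p = 0.00187). The probes of this segment gave unlike changes, but the uncalled probe reads near the upper end of the scale. Whether that limits its change was not tested. All 3 lambda constant region probes rose, by 0.66 for IGLC1, 0.49 for IGLC2 and 0.50 for IGLC3. IGLC2, which also reads near the upper end of the scale, had 15.99 and 16.06 in GFP-positive cells, against 15.52 and 15.55 in GFP-negative cells, a change of +0.49 (SE 0.08, adjusted p = 0.0187). Of 104 tested heavy-chain V segment probes, 83 rose (median +1.46). T-cell receptor V segment probes of the alpha and beta chains were tested in 1 case each, and neither was called.

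A list of 40 genes of light chain assembly, immunoglobulin transcription and mRNA processing had 25 with a matched probe and 19 that were tested. Over all tested features, 5.83% were called higher and 5.29% lower. The 19 tested genes of the list were split evenly, with 4 higher, 4 lower and 11 not called, and had a median change of -0.11. Leaving out any 1 array left 2 higher. Those that rose were Jchain, which joins polymeric antibody, Xbp1, the transcription factor of the secretory apparatus, Ell2, an elongation factor that favours the secreted form of heavy-chain mRNA, and Tcf4, an E protein that binds E boxes of immunoglobulin enhancers. Tcf4 had 13.32 and 13.32 in GFP-positive cells, against 12.96 and 12.99 in GFP-negative cells, a change of +0.35 (SE 0.08, adjusted p = 0.0466), and its call was lost whichever array was left out (adjusted p = 0.140 to 0.169). Jchain, detected on 2 arrays, had 9.84 and 9.34 in GFP-positive cells, against 8.16 and 7.95 in GFP-negative cells, a change of +1.53 (SE 0.18, adjusted p = 0.00795). Its GFP-negative values lie at or near the band of probes detected on no array, so it had to differ to pass the detection filter, and its call adds no support to the count of 4. Xbp1 rose by 0.88 and was not called without GFP-positive replicate 2 (adjusted p = 0.0601). Ell2 rose by 0.70. With 1 array left out, its change ranged from +0.49 to +0.92, and its call did not hold in every such fit. The 4 that fell were Zfp318, Spib, Ebf1 and Foxo1. Zfp318, which is needed for IgD expression, had 9.21 and 9.39 in GFP-positive cells, against 10.52 and 10.52 in GFP-negative cells, a change of -1.22 (SE 0.09, adjusted p = 0.00251). Ebf1, a transcription factor of the B lineage, had 10.42 and 10.43 in GFP-positive cells, against 11.13 and 11.15 in GFP-negative cells, a change of -0.72 (SE 0.08, adjusted p = 0.00562). Spib, an ETS factor related to PU.1, which binds the 3' kappa enhancer, fell by 0.91, a call that needed both GFP-positive arrays (adjusted p = 0.0575 and 0.0666 without 1 of them). Foxo1, an activator of the Rag genes, fell by 0.54. With 1 array left out, its change ranged from -0.62 to -0.47, and its call did not hold in every such fit. Of the genes of V(D)J recombination and the surrogate light chain, Rag1 was detected on 1 array, and Igll1, Vpreb1 and Vpreb2 on 0.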

How the data were processed

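Total RNA of 4 samples was labelled and hybridised to Illumina bead arrays, per the labels' protocols. The deposited values are intensities that the authors normalized with lumi, per the submitters' processing notes, and they were treated here as log2. The sources used here do not give version, background step or transformation. Sorted columns differed by at most 0.00267. The deposited table of unnormalized signals has 4 columns whose names match no sample, and they were not used. Its deposited detection p-values served only to count arrays with p under 0.05. This kept 15787 of 45992 probes. Names with a Gene ID gave symbols to 9807 probes. Each gene with a symbol kept its brightest probe, which left 15215 features.

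The contrast of GFP-positive over GFP-negative cells came from limma 3.58.1 in R 4.3.3 (lmFit, eBayes), two-sided and without a block (2 residual and 3.40 prior degrees of freedom), with Benjamini-Hochberg adjustment over all features. SE is that of the log2 change. With 2 arrays a group, the smallest exact permutation p is 0.33. The fit was tested on simulated data. Members, lists and rules were chosen with earlier results of these data known. Named were the brightest probe of each family, the 5 largest and 5 lowest changes, the 5 brightest, uncalled probes and the genes of the list. Dim, middle and bright sets are of 34 probes each by mean level. Alternatives were other filters, cyclic loess, an intensity trend, the replicate number as a block, and leaving out each array. Precision is limited by the number of arrays. Promoter sequences of Igkv genes were not used here.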

Additional observations from a re-analysis of the deposited data

How the results depend on the processing

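The count of 89 higher kappa V segment probes was 87 to 96 under the alternatives that keep all arrays and 76 to 84 with 1 array left out, and 0 probes were called lower under any of them. All-feature counts with 1 array left out were 492 to 618 higher and 336 to 610 lower, against 887 and 805. In all, 69 of the 89 were called whichever array was left out, and 13 of the 20 that were not lie in the middle set. The replicate number as a block, which the labels do not state as a pairing, gave 96 higher, all 89 among them, and 1861 higher and 2125 lower over all features. Replicate 1 minus replicate 2 in the groups had a Pearson correlation of 0.54 across the 102 probes (0.47 without IGKV6-13) and of 0.44 over all features. Cyclic loess gave 947 and 655 over all features, against 89 kappa probes. Subtracting the median change of all features left +1.33.

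Without the filter on detection, the median change was +1.00 over 145 probes, 5 families had every probe called against 10, and the medians were +0.0188 in the dim and +1.28 in the middle set. Undetected probes enter there. With probes detected on all 4 arrays, the dim set had +1.28. With 1 array left out, the middle set ranged from +1.31 to +1.65 and the bright set from +1.28 to +1.40. Cyclic loess gave +1.47 in the bright set. The gene list had 2 higher with probes detected on all 4 arrays and 2 with any 1 array left out, against 4, and 2 to 4 lower.

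Directions turned only in values that had not been called, or in family IGKV15 (-0.0294) once its 2 undetected probes entered, by either way of adding them. With 1 array left out, IGKV7-33 and its family ranged from -0.18 to +0.29, IGKV6-13 from -0.37 to +2.42, Igkc from -0.0128 to +0.10, Mef2c from -0.24 to +0.0606, Eaf2 from -0.00498 to +0.0945, Id3 from -0.39 to +0.0102 and Trim33 from -0.11 to +0.11. Trim33 was at +0.0259 with cyclic loess. The cause was not tested.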

Other observations

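Between IGKV6-32 and IGKV5-39 the RefSeq order places 6 V segments, none annotated as a pseudogene and each of a different family, and all 6 have a probe. Their probes read between 8.06 and 9.17 on every array. They are IGKV7-33, IGKV8-34, IGKV1-35, IGKV18-36, IGKV5-37 and IGKV12-38. The probes of both flanking segments were bright. IGKV6-32 had 12.00 and 11.99 in GFP-positive cells, against 11.54 and 11.54 in GFP-negative cells. IGKV5-39 had 12.82 and 12.65 in GFP-positive cells, against 11.54 and 11.31 in GFP-negative cells. Of all 92 probes for RefSeq V segments, 17 had a mean level under 9, 6 of them in this run and 5 in family IGKV3. The 5 of IGKV3 are IGKV3-3, IGKV3-5, IGKV3-7, IGKV3-10 and IGKV3-12, and none of them was tested, while the other 4 probes of that family were detected on all arrays and rose. Within the run, IGKV8-34 and IGKV5-37 rose by 0.60 and 0.57. Probes bind with different strength, so a low reading does not give the use of a segment. The run was noticed after the values were seen, and no test was made of it.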
